A study of Rattus norvegicus with 15 samples.

Results

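The contractile unit of heart muscle was examined through 10 genes, Myh6, Myh7, Tnnt2, Tnni3, Tnnc1, Actc1, Myl2, Myl3, Mybpc3 and Ttn, chosen by symbol from the array's platform annotation. In that annotation 8 of the 10 had a probe set, 1 each, among 23188 probe sets of which 15049 carried 1 gene symbol. Myh6, the alpha myosin heavy chain, and Ttn, the giant protein titin, had no row under their symbol or gene ID and were not analysed here. The RNA came from hearts of male Sprague-Dawley rats aged 8 to 10 weeks. The first group was killed 24 h and the second 12 h after severe acute pancreatitis (SAP) had been started by running 5% sodium taurocholate, a bile salt, backwards up the bile and pancreatic ducts, and the third had sham surgery. Each group held 5 arrays, 15 in all, which the design text counts as 5 hearts a group, and all animals died by an overdose of the anaesthetic pentobarbital. Which part of the heart was taken, the hour of day and the interval between sham surgery and sampling are not stated in the labels, so hour of day and SAP cannot be told apart.

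A sarcomere shortens when myosin heads of the thick filament pull on actin of the thin filament. Calcium binding to troponin C shifts troponin I, troponin T and tropomyosin and so frees actin for myosin, while the myosin light chains and myosin binding protein C tune the pull. In the adult rat ventricle the alpha heavy chain predominates, and a shift toward Myh7, the beta or slow heavy chain, is a known mark of pressure overload and low thyroid hormone. The values were deposited as RMA output, a background correction, normalization and summary of Affymetrix probes, and are read here as log2 levels because of that name. A difference of 1 then stands for a doubling. Probe sets differ in how brightly they bind, so differences were read between groups for 1 gene at a time. A place on the scale, high or low, is a description only.

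The 15 measured ventricular muscle markers outside the sarcomere averaged between 15.51 and 15.90 log2 in every array. Some arrays stood apart before any comparison. Array medians lay between 5.9 and 5.98 log2, but among the most abundant probe sets the arrays were less even. The median of the 135 probe sets other than the sarcomere genes with a mean of at least 17 log2 was 17.42 in sham replicate 3, whereas it lay between 17.65 and 17.79 in the SAP 24 h arrays, 17.7 and 17.81 in the SAP 12 h arrays and 17.67 and 17.76 in the other 4 sham arrays. Sham replicate 3 was also the lowest of its group in all 8 sarcomere genes. Atrial tissue varied too: Myl4, the atrial essential light chain, and Sln, sarcolipin of the atrial calcium pump, both exceeded 12 log2 in SAP 12 h replicates 3 and 4 and in sham replicates 2 and 3, and in 0 SAP 24 h arrays. These 4 arrays are called atrium-rich below. The name fits sham replicate 3 only in part. Of the further atrial markers, Nppa read 18.54 log2 there and Myl7, the atrial regulatory light chain, 17.47. Bmp10 read only 3.88 and Stard10 8.94 in that array. In the rest of the atrium-rich arrays Bmp10 read 9.72 to 16.09 and Stard10 11.59 to 13.51. The mean of 6 atrial markers was 8.20 to 15.08 log2 in the sham arrays and 6.79 to 7.66 in the SAP 24 h arrays. Those groups thus differ in atrial markers also outside the 4 arrays, and atrial tissue and SAP at 24 h cannot be fully told apart. The same limit holds at 12 h. Outside the 4 arrays Myl7 read 6.69, 12.62 and 8.02 log2 in SAP 12 h and 13.08, 13.54 and 13.90 in sham arrays. The mean of the 6 markers overlapped there, at 6.97, 8.75 and 6.815 in SAP 12 h and 9.15, 8.20 and 9.87 in sham arrays. Both patterns touch the results that follow. Calls of named sarcomere and related genes lost without the 4 atrium-rich arrays are stated beside them or with the counts of their list. Fewer arrays also lower the power, so such a loss is not read as a result of atrial tissue. Values without sham replicate 3 are given where it changes a call or a direction. In bulk RNA, fewer muscle cells and less RNA per muscle cell cannot be told apart.

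In the 12 h comparison 1 of the 8 sarcomere genes, Actc1, was called lower than in sham hearts and 0 were called higher at an adjusted p under 0.05 (limma, Benjamini-Hochberg over all probe sets). The share of all 23188 probe sets called lower was 2.57%, the share called higher 2.35% and the share called either way 4.92%. The median difference of the 8 genes was -0.13 log2, against 0.01 for all probe sets and 0.06 for the 135 other abundant probe sets. At an unadjusted p under 0.05 there were 2 of 8. The share of all probe sets under that looser threshold is not given here. The shares of calls cannot be set beside such counts, at any time. In the 24 h comparison with sham 0 of 8 were called by limma and 1 of 8 had an unadjusted p under 0.05, where 3.37% of all probe sets were called, 2.14% lower and 1.23% higher. The median of the 8 was -0.12 log2, against 0.02 both for all probe sets and for the other abundant ones. Between SAP 24 h and SAP 12 h 0 of 8 were called by limma and 0 had an unadjusted p under 0.05, with 0.69% of all probe sets called, 0.569% lower and 0.121% higher. Both comparisons with sham use the same 5 sham arrays. In none of the 8 genes did the arrays of the groups separate fully in any of the 3 comparisons. Of all probe sets 4.78%, 5.99% and 2.57% separated at 12 h, at 24 h and between the times, so 0 of 8 does not set these genes apart.

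**Figure D1:**
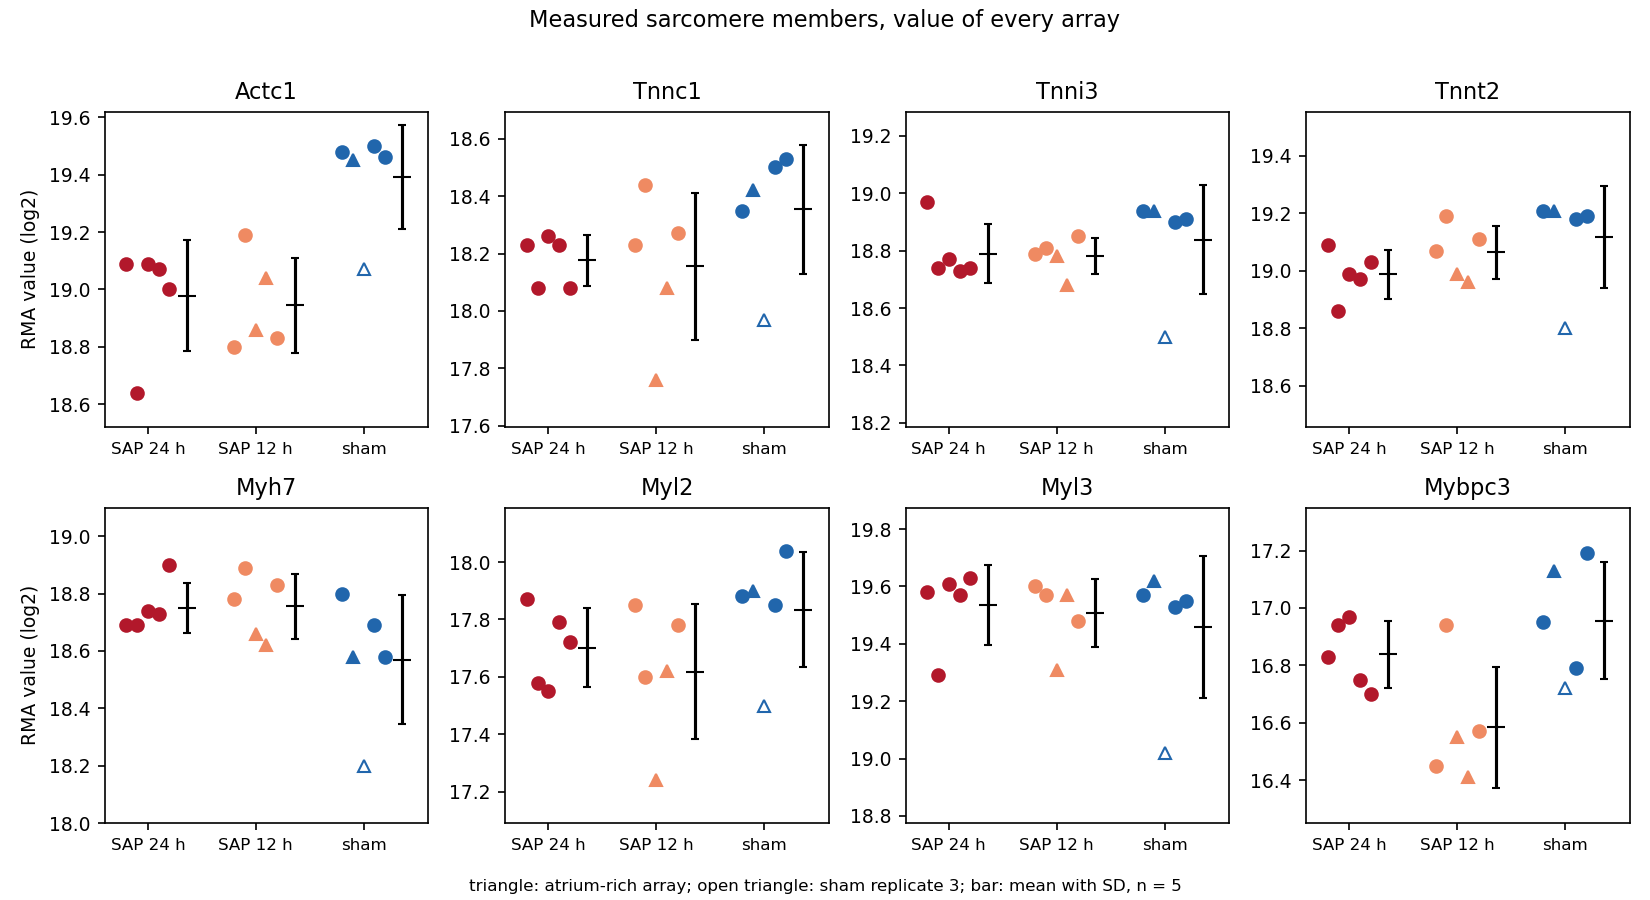
Level of each measured sarcomere gene in every array on the log2 scale, 1 panel a gene, with SAP 24 h, SAP 12 h and sham arrays from left to right, mean and SD (n = 5) as black bars, and triangles for atrium-rich arrays. Sham replicate 3, the open triangle, was the lowest sham array in all 8 panels, and for Actc1 the other 4 sham arrays lay above all 10 SAP arrays.

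The thin filament was led by Actc1, the cardiac alpha actin that forms the filament itself. Its levels were 19.09, 18.64, 19.09, 19.07 and 19.00 log2 in SAP 24 h replicates 1 to 5 and 18.80, 19.19, 18.86, 19.04 and 18.83 in SAP 12 h replicates 1 to 5. The sham arrays read 19.48, 19.45, 19.07, 19.50 and 19.46. All 10 SAP arrays lay at or below 19.19, and 4 of 5 sham arrays at or above 19.45, with sham replicate 3 among the SAP values. Actc1 fell at 12 h, to 18.94 ± 0.17 (SD, n = 5) against 19.39 ± 0.18 in sham hearts (n = 5), a log2 difference of -0.45 ± 0.13 SE or 1.36-fold lower (limma adjusted p = 0.0482). At 24 h it averaged 18.98 ± 0.19 and the difference from sham was -0.41 ± 0.13 SE (adjusted p = 0.0807). The SAP 24 h and SAP 12 h hearts differed by 0.03 log2 with a 95% interval of -0.23 to 0.30 (adjusted p = 0.946).

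The 12 h call for Actc1 lay close to the threshold. It was lost in 12 of 15 fits that each left out 1 array, with the difference between -0.53 and -0.41 and adjusted p between 0.0209 and 0.114 over the 15. Only the fits without sham replicate 3, SAP 12 h replicate 2 or SAP 24 h replicate 2 kept it. Without sham replicate 3 the differences were -0.53 at 12 h (adjusted p = 0.0209) and -0.49 at 24 h (adjusted p = 0.0470), so that both were called. Without the 4 atrium-rich arrays the 12 h difference was -0.54 (adjusted p = 0.110), and with the mean of 6 atrial markers as a covariate it was -0.45 (adjusted p = 0.0523).

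The promoters of these genes are shown for Actc1, the gene called, for Mybpc3, which had the second smallest adjusted p at 12 h, and for Myl3, whose window held the most motif matches. RefSeq (build GRCr8) entries were matched for 6 of the 8 genes, Tnni3, Mybpc3, Actc1, Myl3, Tnnt2 and Myh7. The 250 bases before the start site were searched on both strands for the CArG box bound by serum response factor, for the MEF2 site, both by their consensus, and for CATTCC, the core of the MCAT element bound by TEAD factors. Capitals mark matches.
Actc1, chr3:121271828-121272077, minus strand: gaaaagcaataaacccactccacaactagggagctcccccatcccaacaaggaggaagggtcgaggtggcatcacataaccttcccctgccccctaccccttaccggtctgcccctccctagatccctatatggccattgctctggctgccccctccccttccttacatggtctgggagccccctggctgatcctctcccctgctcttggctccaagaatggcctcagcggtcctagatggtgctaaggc
Mybpc3, chr3:97550811-97551060, plus strand: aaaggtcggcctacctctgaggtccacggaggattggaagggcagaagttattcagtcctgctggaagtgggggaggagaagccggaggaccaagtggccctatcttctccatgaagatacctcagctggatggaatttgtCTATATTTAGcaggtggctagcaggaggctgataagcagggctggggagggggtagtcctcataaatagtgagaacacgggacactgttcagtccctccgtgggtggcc
Myl3, chr8:119616844-119617093, plus strand: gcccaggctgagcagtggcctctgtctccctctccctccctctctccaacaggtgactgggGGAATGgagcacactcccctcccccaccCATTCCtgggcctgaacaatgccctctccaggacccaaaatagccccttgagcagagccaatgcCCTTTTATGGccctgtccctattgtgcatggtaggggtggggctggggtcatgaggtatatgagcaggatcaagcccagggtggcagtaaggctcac

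The MEF2 match of Mybpc3 lay 109 to 100 bases before the start, in 1 of the 6 genes and in 2.96% of 33469 promoters of that length. Myl3 held a CArG match 97 to 88 bases before the start, a motif found in 1.5% of promoters, and 2 MCAT cores, 1 on each strand. MCAT cores were in 2 of the 6 genes, Myl3 and Tnnt2, and in 12.1% of promoters. The Actc1 window held none of the 3 exact strings. A match is a description of these letters and no matches overlapped.

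The troponin genes of the thin filament did not pass the test in any comparison. Tnnc1 encodes troponin C, the calcium sensor. It read 18.23, 18.08, 18.26, 18.23 and 18.08 log2 in SAP 24 h arrays, 18.23, 18.44, 17.76, 18.08 and 18.27 in SAP 12 h arrays, and 18.35, 18.42, 17.97, 18.50 and 18.53 in sham arrays. The groups overlapped, and the lowest arrays of their groups, SAP 12 h replicate 3 and sham replicate 3, were both atrium-rich. Of the other atrium-rich arrays, SAP 12 h replicate 4 read 18.08 and sham replicate 2 read 18.42, in the middle of its group. The differences from sham were -0.20 ± 0.14 SE at 12 h and -0.18 ± 0.14 SE at 24 h (adjusted p = 0.542 and 0.566 by limma), and 95% intervals were -0.48 to 0.09 and -0.46 to 0.11.

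Tnni3, the inhibitory subunit, read 18.97, 18.74, 18.77, 18.73 and 18.74 log2 in SAP 24 h arrays, 18.79, 18.81, 18.78, 18.68 and 18.85 in SAP 12 h arrays, and 18.94, 18.94, 18.50, 18.90 and 18.91 in sham arrays. All but sham replicate 3 lay between 18.68 and 18.97. The differences from sham were -0.06 log2 at 12 h and -0.05 at 24 h, and the 95% interval of each stayed within -0.28 and 0.18. Tnnt2, which ties the troponin complex to tropomyosin, read 19.09, 18.86, 18.99, 18.97 and 19.03 in SAP 24 h arrays, 19.07, 19.19, 18.99, 18.96 and 19.11 in SAP 12 h arrays, and 19.21, 19.21, 18.80, 19.18 and 19.19 in sham arrays. Apart from sham replicate 3 the sham arrays lay between 19.18 and 19.21, and 9 of the 10 SAP arrays at or below 19.11. Its differences from sham were -0.05 at 12 h (95% interval -0.28 to 0.17) and -0.13 at 24 h (95% interval -0.36 to 0.10), with adjusted p = 0.890 and 0.603.

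In the thick filament Myh7 was the gene with the highest positive difference of the 8 in both comparisons with sham, without passing the test. Its levels were 18.69, 18.69, 18.74, 18.73 and 18.90 log2 in SAP 24 h arrays, 18.78, 18.89, 18.66, 18.62 and 18.83 in SAP 12 h arrays, and 18.80, 18.58, 18.20, 18.69 and 18.58 in sham arrays. The 4 sham arrays other than replicate 3 lay within or just under the SAP range. The differences were 0.19 ± 0.12 SE at 12 h (adjusted p = 0.495) and 0.18 ± 0.12 SE at 24 h (adjusted p = 0.487), with 95% intervals of -0.06 to 0.43 and -0.07 to 0.43. Without sham replicate 3 they came to 0.09 at both times. The alpha to beta heavy chain ratio could not be formed, since Myh6 was not analysed here. Whether the Myh7 probe set also binds Myh6 RNA was not tested.

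Myl2, the regulatory light chain of the ventricle, read 17.87, 17.58, 17.55, 17.79 and 17.72 log2 in SAP 24 h arrays, 17.85, 17.60, 17.24, 17.62 and 17.78 in SAP 12 h arrays, and 17.88, 17.90, 17.50, 17.85 and 18.04 in sham arrays. SAP 12 h replicate 3 and sham replicate 3 were again the low arrays, and the groups overlapped. The differences from sham were -0.22 ± 0.13 SE at 12 h and -0.13 ± 0.13 SE at 24 h (adjusted p = 0.480 and 0.687). Myl3, the essential light chain of the ventricle, read 19.58, 19.29, 19.61, 19.57 and 19.63 in SAP 24 h arrays, 19.60, 19.57, 19.31, 19.57 and 19.48 in SAP 12 h arrays, and 19.57, 19.62, 19.02, 19.53 and 19.55 in sham arrays. Each group held 1 low array and 4 between 19.48 and 19.63. Its differences were 0.05 at 12 h and 0.08 at 24 h, and without sham replicate 3 they were -0.06 and -0.03, so no direction can be given.

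Mybpc3 encodes cardiac myosin binding protein C, which sits along the thick filament and restrains the heads. It read 16.83, 16.94, 16.97, 16.75 and 16.70 log2 in SAP 24 h arrays, 16.45, 16.94, 16.55, 16.41 and 16.57 in SAP 12 h arrays, and 16.95, 17.13, 16.72, 16.79 and 17.19 in sham arrays. At 12 h, 4 of 5 arrays lay below every array of the other groups and replicate 2 lay among them. The 12 h difference was -0.37 ± 0.13 SE (95% interval -0.64 to -0.11, adjusted p = 0.117) and, without SAP 12 h replicate 2, -0.46 (adjusted p = 0.0340). At 24 h Mybpc3 differed from sham by -0.12 ± 0.13 SE (adjusted p = 0.711) and from 12 h by 0.25 ± 0.13 SE (adjusted p = 0.406).

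**Figure D2:**
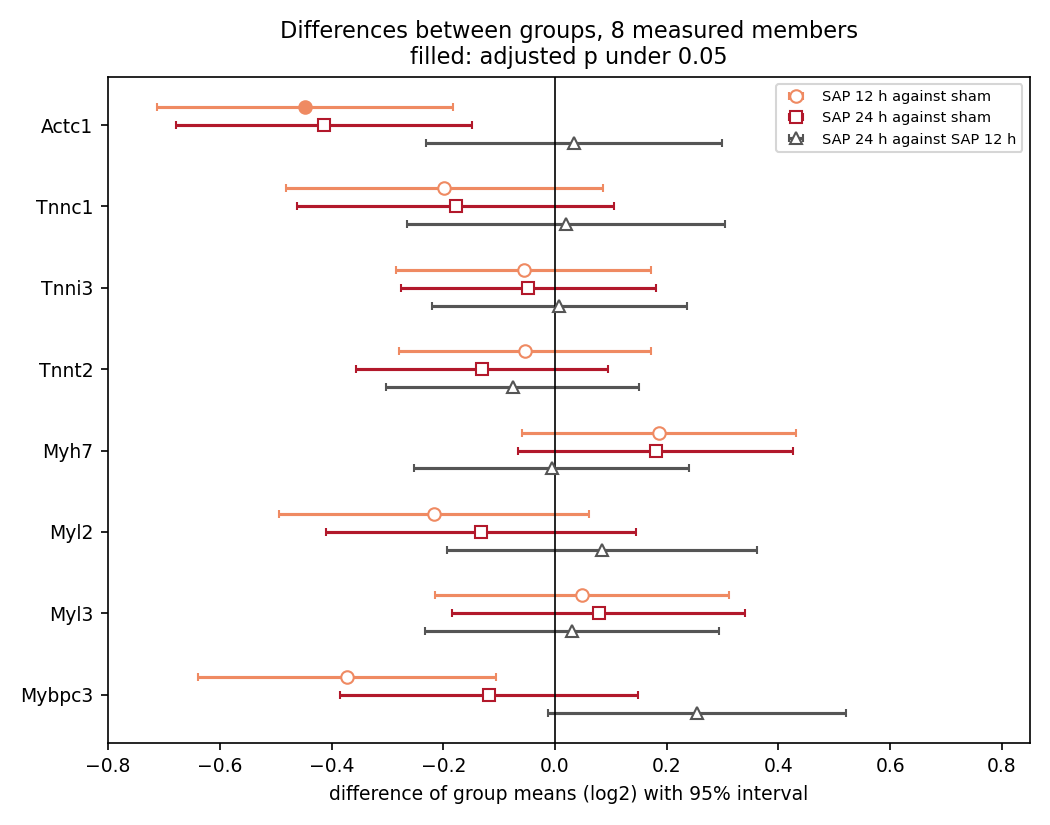
Difference of group means on the log2 scale for the 8 measured sarcomere genes, with 95% intervals from limma, for SAP 12 h against sham, SAP 24 h against sham and SAP 24 h against SAP 12 h. The single filled symbol, Actc1 at 12 h with -0.45, is the only difference with an adjusted p under 0.05.

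Between the times the 8 differences ran from -0.08 in Tnnt2 to 0.25 in Mybpc3, with adjusted p between 0.406 and 0.994 and 95% limits between -0.30 and 0.52. For Actc1 the order of the group means was sham, SAP 24 h and SAP 12 h from high to low, and the SAP groups did not differ beyond their spread. Mybpc3, Myl2 and Tnnc1 had the same order of means. Tnni3 also had it, with SAP means of 18.79 and 18.78. Tnnt2 was lowest at 24 h, and Myh7 and Myl3 were lowest in sham hearts, where the neighbouring means did not differ beyond the spread.

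All 8 genes lie at the bright end of the scale. Their means over the 15 arrays ran from 16.79 log2 in Mybpc3 to 19.50 in Myl3, 6 of them above 18, and at most 0.768% of probe sets had a higher mean. The table itself ran from 2.51 to 19.83, and all 8 genes exceeded 16 log2, the log2 of the largest 16-bit number, in all arrays, so the values are not plain scanner readings and give no direct view of saturated pixels. Over the 15 arrays a single gene spanned 0.41 to 0.86 log2. Among the other probe sets the median size of a difference from sham shrank at the top of the scale. In the band from 18 to 20 log2 it was 0.05 at 24 h and 0.10 at 12 h, against 0.17 and 0.26 in the band from 14 to 16 log2. The share called was 3.85% at 24 h and 5.77% at 12 h in the top band of 52 probe sets, against 13.4% and 15.6% from 14 to 16 log2. The spread within groups shrank as well, with a median SD of 0.15 log2 in the top band and 0.19 from 14 to 16 log2. Whether the scale is compressed there was not tested. If it is, the differences of the sarcomere genes are understated.

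**Figure D3:**
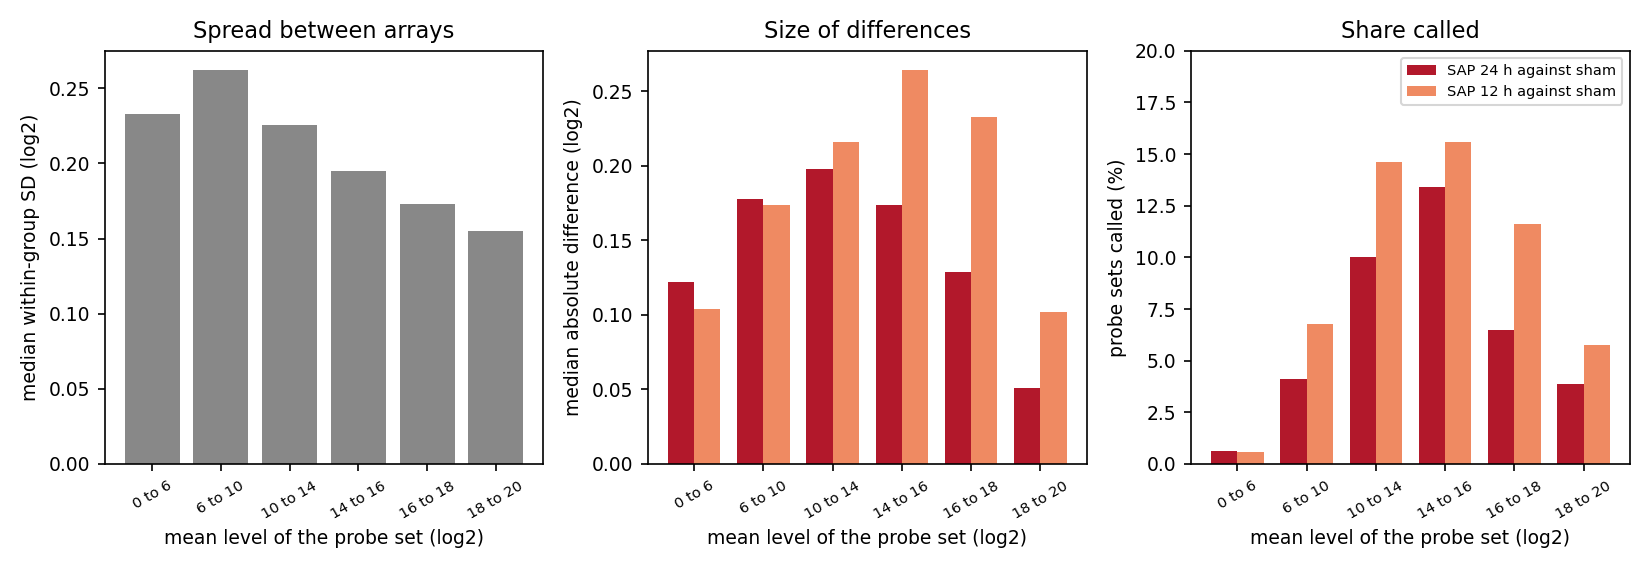
Probe sets other than the sarcomere genes in bands of mean level (log2): median SD within groups, median size of the difference from sham and percent called, with SAP 24 h in red left of SAP 12 h in orange. The share called was highest from 14 to 16 log2, 13.4% at 24 h and 15.6% at 12 h, and was 3.85% and 5.77% from 18 to 20 log2, the band of 6 of the 8 genes.

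The 8 genes also moved together from array to array. Their mean was 18.22 log2 in sham replicate 3 and 18.62 to 18.68 in the other 4 sham arrays, with 18.66 in the atrium-rich replicate 2. It was 18.35 to 18.54 in the SAP 24 h arrays and 18.27 to 18.58 in the SAP 12 h arrays, where atrium-rich replicates 3 and 4 were lowest. Part of this was shared with other bright probe sets, as the low abundant median of sham replicate 3 showed. An alternative chosen after seeing the data therefore centred each array on the median of the 135 other abundant probe sets. The median SD of the 8 genes within groups was then 0.12 log2, against 0.18 as deposited, and it was smaller in 8 of 8 genes. On that scale the Actc1 arrays of both SAP groups separated fully from sham, with differences of -0.52 at 12 h (adjusted p = 0.00891) and -0.47 at 24 h (adjusted p = 0.0225). Mybpc3 was called lower at 12 h too (-0.44, adjusted p = 0.0413). That made 2 of 8 called lower at 12 h and 1 of 8 at 24 h, where 3.25% and 2.8% of all probe sets were. The Tnnt2 arrays separated at 24 h without a call (-0.19, adjusted p = 0.387), while 5.05% at 12 h and 5.79% at 24 h of all probe sets separated on this scale. Centring moved the balance of all calls: at 12 h 366 higher (1.58%) and 753 lower stood against 544 and 596 as deposited, and at 24 h 192 (0.828%) and 650 against 286 and 496.

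**Figure D4:**
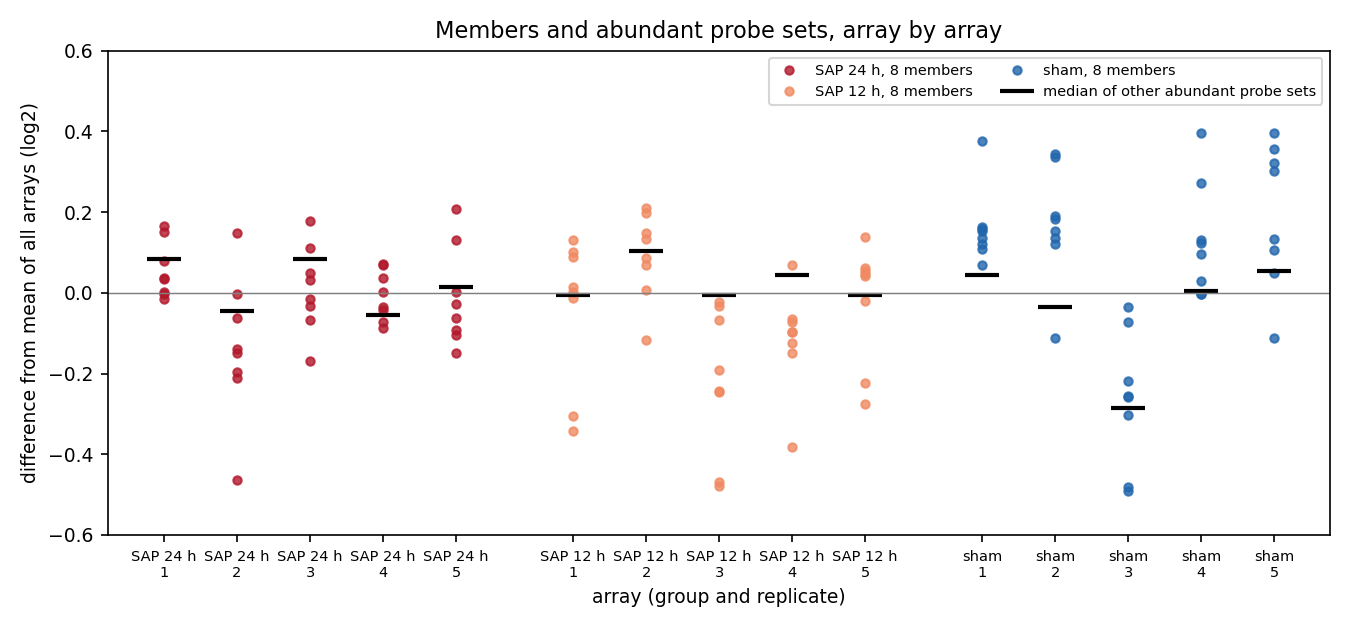
Deviation of each of the 8 sarcomere genes from its own mean over all arrays (log2, points) and the same for the median of 135 other abundant probe sets (black bars), array by array, with SAP 24 h, SAP 12 h and sham arrays from left to right. Sham replicate 3 lay below its mean in all 8 genes and in the abundant median, at -0.29.

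Other genes of the sarcomere were counted from lists of related genes, which like the 8 genes were drawn up with earlier results known. Of 33 other sarcomere, Z-disc and M-band genes 25 were measured. At 12 h 4 rose and 1 fell against sham, with a list median of -0.07 log2, and at 24 h 1 rose and 1 fell, with a list median of 0.02. Of all probe sets 4.92% were called at 12 h and 3.37% at 24 h. From 14 to 16 log2, the band of this list's median level (15.21), 15.6% and 13.4% were. Pdlim5, a Z-disc PDZ and LIM domain protein, rose to 12.90 ± 0.28 log2 at 12 h against 12.22 ± 0.10 in sham hearts (0.68, adjusted p = 0.00446). Csrp3, the muscle LIM protein of the Z-disc, rose by 0.65 (adjusted p = 0.00631). Myom2, an M-band protein, rose by 0.49 at 12 h and by 0.61 at 24 h (adjusted p = 0.0197 and 0.00689). The 12 h call for Myom2 was lost without sham replicate 3 (0.0545) or SAP 12 h replicate 5 (0.0555), as adjusted p. It was 0.56 without the 4 atrium-rich arrays (adjusted p = 0.0595), and centring on the abundant probe sets gave 0.42 (adjusted p = 0.0703).

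The thin filament's pointed end, where Actc1 subunits are added, involves Lmod2, a leiomodin that lengthens the filament, and Tmod1, the tropomodulin that caps it. Lmod2 fell at 12 h to 16.44 ± 0.40 log2 against 17.05 ± 0.12 in sham hearts (-0.61, adjusted p = 0.0259), and read 17.10 ± 0.13 at 24 h. The Lmod2 call was lost without sham replicates 1 or 5 or SAP 12 h replicates 1 or 4 (adjusted p of 0.0717, 0.0565, 0.0613 and 0.0521). Without the 4 atrium-rich arrays Lmod2 differed by -0.48 (adjusted p = 0.187). Tmod1 fell at 24 h to 14.11 ± 0.20 against 14.80 ± 0.10 (-0.69, adjusted p = 0.00376), and its 12 h difference was -0.26 (adjusted p = 0.305). Tpm1, the tropomyosin strand along the filament, read 18.93 ± 0.12 at 24 h, 18.87 ± 0.07 at 12 h and 19.10 ± 0.17 in sham hearts, and was not called. Actn2, the actinin that anchors thin filaments in the Z-disc, differed from sham by -0.12 at 12 h and -0.02 at 24 h. Myot, the Z-disc protein myotilin, was the remaining call at 12 h (2.10, adjusted p = 0.0297). Without the 4 atrium-rich arrays the counts of this list were 3 higher and 0 lower at 12 h and 1 of each at 24 h. In that fit 598 of all 23188 probe sets were called at 12 h and 500 at 24 h, against 1140 and 782 with all arrays.

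Of 23 sarcomere isoforms typical of atria, other muscles or earlier stages 20 were measured, with 1 higher and 0 lower at 12 h and 0 higher and 1 lower at 24 h. The list medians were -0.04 and -0.07 log2. The share called of all probe sets was 4.92% at 12 h and 3.37% at 24 h, and 0.578% and 0.62% up to 6 log2, the band of this list's median level (5.41). The 12 h call, Tpm3 (0.42, adjusted p = 0.0485), came from 1 of 3 probe sets and was lost in 12 of 15 fits without 1 array, with adjusted p up to 0.131, and the other 2 probe sets differed by -0.06 and 0.25. Its adjusted p was 0.215 without the 4 atrium-rich arrays and 0.0511 with the atrial covariate. The 24 h call was the atrial regulatory light chain Myl7, at 7.47 ± 2.19 log2 against 15.40 ± 2.67 in sham hearts (-7.93, adjusted p = 0.0354). It was lost in 8 of 15 fits without 1 array, with adjusted p between 0.0162 and 0.0927 over the 15. The atrium-rich arrays were in the 12 h and sham groups. Without them the 24 h difference of Myl7 was -6.04 (adjusted p = 0.0192), and with the atrial covariate, whose 6 markers include Myl7, it was -3.86 (adjusted p = 0.0235). Leaving them out did not even out the atrial markers, since sham replicates 1, 4 and 5 still read 13.08, 13.54 and 13.90 for Myl7. Acta1, the skeletal alpha actin that the fetal and overloaded heart also uses and whose coding sequence is close to that of Actc1, read 17.54 ± 0.70 at 24 h, 16.18 ± 1.52 at 12 h and 17.77 ± 0.50 in sham hearts. Its 12 h difference was -1.59 ± 0.53 SE (adjusted p = 0.101). Tnni1, the slow skeletal and fetal troponin I, stood at 6.34, 6.38 and 6.31 at 24 h, at 12 h and in sham hearts.

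Genes of sarcomere assembly, kinases and turnover, 18 of 21 measured, had 1 higher and 5 lower at 12 h, and the same counts at 24 h, against 2.35% higher and 2.57% lower of all probe sets at 12 h and 1.23% and 2.14% at 24 h. From 10 to 14 log2, the band of this list's median level (12.31), 14.6% of probe sets were called either way at 12 h and 10% at 24 h. The list medians were -0.17 and -0.05 log2. Hspb8, a small heat shock protein that works with Bag3 in clearing damaged filament proteins, fell to 13.71 ± 0.36 at 12 h against 14.72 ± 0.11 in sham hearts (2.02-fold lower, adjusted p = 4.42e-04), and to 14.14 ± 0.13 at 24 h (-0.59, adjusted p = 0.0325). Smyd1, a muscle methyltransferase needed for myosin assembly, fell by 1.17 log2 at 12 h (adjusted p = 0.00606) and by 0.95 at 24 h (adjusted p = 0.0333). Cand2, a muscle regulator of cullin ligases, fell by 0.62 at 12 h (adjusted p = 0.00273) and by 0.61 at 24 h (adjusted p = 0.00468), and without the 4 atrium-rich arrays its 12 h difference was -0.54 (adjusted p = 0.0692). Prkaca, the catalytic subunit of the kinase that phosphorylates Tnni3 and Mybpc3, fell by 0.61 at 12 h (adjusted p = 0.00459) and by 0.58 at 24 h (adjusted p = 0.0104).

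The remaining calls of this list were Ppp1r12b and Trim54. Ppp1r12b, a targeting subunit of myosin phosphatase, fell by 0.40 at 12 h (adjusted p = 0.0340) and by 0.44 at 24 h (adjusted p = 0.0268). Trim54, a muscle RING finger ubiquitin ligase, rose to 15.94 ± 0.36 at 12 h and 15.74 ± 0.22 at 24 h against 14.96 ± 0.36 in sham hearts, by 0.98 (adjusted p = 0.00374) and 0.78 (adjusted p = 0.0257). Its 24 h call was lost without sham replicate 3 (0.0634), SAP 24 h replicate 2 (0.0517) or SAP 24 h replicate 5 (0.0764). That of Ppp1r12b was lost in 5 of 15 such fits, without sham replicates 3 or 4 or SAP 24 h replicates 1, 4 or 5, with adjusted p up to 0.0676. Without the 4 atrium-rich arrays the 24 h values were 0.58 for Trim54 (adjusted p = 0.0518) and -0.42 for Ppp1r12b (adjusted p = 0.126), and with the atrial covariate 0.59 (0.130) and -0.47 (0.0523). Without the 4 atrium-rich arrays the list had 1 higher and 3 lower at 12 h and 0 higher and 2 lower at 24 h. Of all 23188 probe sets that fit called 598 at 12 h and 500 at 24 h. The 2 lower at 24 h were Cand2 (adjusted p = 0.0398) and Prkaca (adjusted p = 0.0236), so the 24 h calls of Hspb8 and Smyd1 were lost too. At 12 h Hspb8 and Prkaca were kept, and of Smyd1 and Ppp1r12b at most 1 was.

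**Figure D5:**
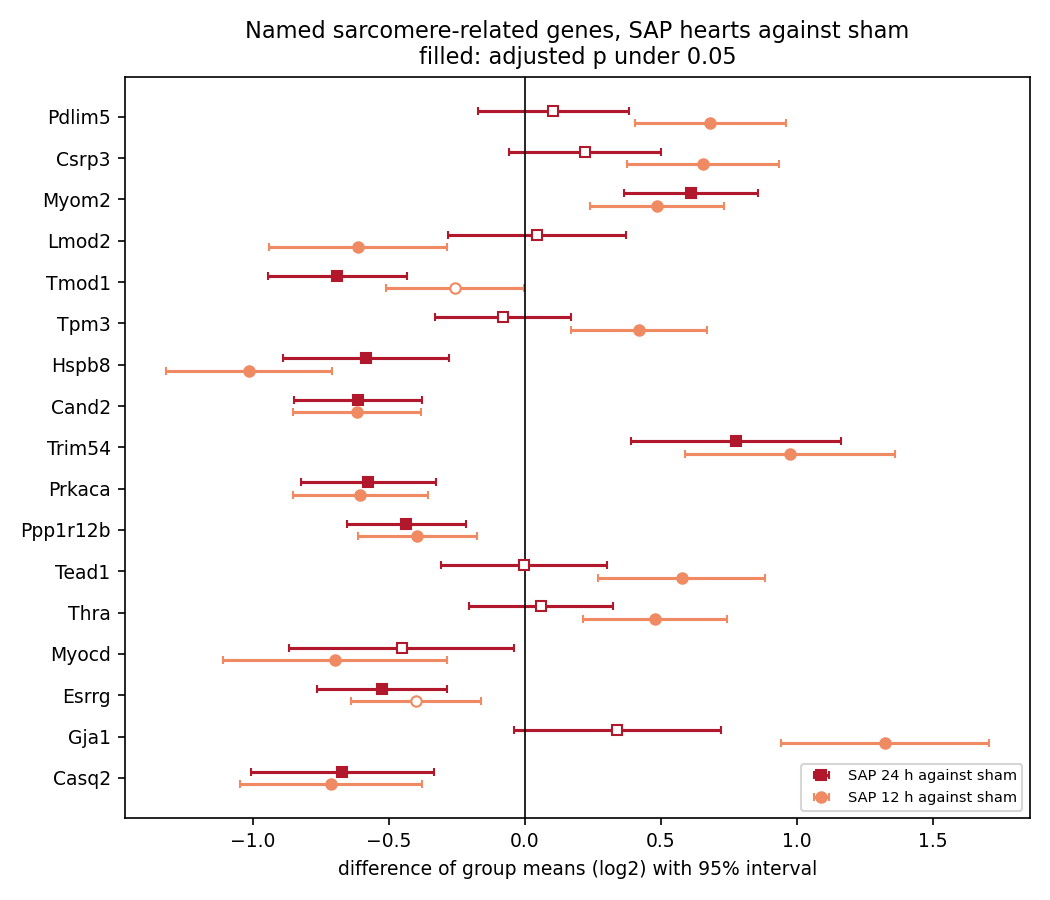
Difference from sham on the log2 scale with 95% intervals from limma for 17 named genes of the related lists, SAP 24 h squares above SAP 12 h circles, filled where the adjusted p was under 0.05. Filled at both times were Hspb8, Cand2, Prkaca, Ppp1r12b and Casq2, below sham, and Trim54 and Myom2, above it. Pdlim5, Csrp3, Lmod2, Tpm3, Tead1, Thra, Myocd and Gja1 were filled at 12 h only, and Tmod1 and Esrrg at 24 h only.

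Of 20 transcription and splicing regulators of sarcomere genes 19 were measured, with 2 higher and 1 lower at 12 h and 0 higher and 1 lower at 24 h, and list medians of 0.11 and -0.02 log2. Among all probe sets 4.92% and 3.37% were called at these times, and 6.76% and 4.13% from 6 to 10 log2, the band of this list's median level (9.85). Tead1, which binds the MCAT core shown in the Myl3 window, rose by 0.58 at 12 h (adjusted p = 0.0258) and read 13.93 ± 0.12 at 24 h against 13.94 ± 0.06 in sham hearts. Thra, the thyroid hormone receptor alpha, rose by 0.48 at 12 h (adjusted p = 0.0338). Myocd, the myocardin coactivator of serum response factor, fell by 0.70 at 12 h (adjusted p = 0.0472). Each of these calls was fragile: leaving out 1 array lost that of Tead1 in 5, of Thra in 5 and of Myocd in 12 of 15 fits, with adjusted p up to 0.0752, 0.0949 and 0.135. Centring on the abundant probe sets lost those of Tead1 and Thra (adjusted p = 0.0705 and 0.186). Thra differed by 0.54 (adjusted p = 0.0876) and Myocd by -0.70 (adjusted p = 0.172) without the 4 atrium-rich arrays. Tead1 kept its 12 h call without them (0.86, adjusted p = 0.00449). With the atrial covariate Tead1, Thra and Myocd were still called at 12 h (adjusted p = 0.00621, 0.0330 and 0.0497). Esrrg, an estrogen-related receptor of mitochondrial and contractile genes, fell by 0.53 at 24 h (adjusted p = 0.0150), and without SAP 24 h replicate 5 its adjusted p was 0.0510.

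Ventricular genes outside the sarcomere, 15 of 16 measured, had 1 higher and 1 lower at 12 h and 0 higher and 1 lower at 24 h, with list medians of -0.06 and -0.03 log2. Among all probe sets 4.92% and 3.37% were called at these times, and 11.6% and 6.47% from 16 to 18 log2, the band of this list's median level (16.94). Gja1, the gap junction protein connexin 43, rose to 17.71 ± 0.27 at 12 h against 16.39 ± 0.08 in sham hearts (2.50-fold, adjusted p = 3.05e-04) and was lower at 24 h than at 12 h (-0.98, adjusted p = 0.0148, or 0.0548 without SAP 24 h replicate 2). Casq2, the calcium store protein calsequestrin, fell by 0.71 at 12 h (adjusted p = 0.0123) and by 0.67 at 24 h (adjusted p = 0.0261). The 24 h call was lost in 6 of 15 fits without 1 array, with adjusted p up to 0.0770. It was also lost without the 4 atrium-rich arrays (-0.68, adjusted p = 0.0799) and with the atrial covariate (-0.57, adjusted p = 0.115). Over the whole list the array means lay between 15.51 and 15.76 in SAP 24 h hearts, 15.65 and 15.90 in SAP 12 h hearts and 15.51 and 15.76 in sham hearts. Between the times Gja1 was the single call of the 5 related lists, where 0.69% of all probe sets were called. The next smallest adjusted p were 0.0503 for Pdlim5 (-0.58 log2), 0.0589 for Lmod2 (0.66), 0.0611 for Tpm3 (-0.50) and 0.0748 for Tead1 (-0.58). Tead1 was called lower at 24 h than at 12 h without the 4 atrium-rich arrays (-0.84, adjusted p = 0.0131) and with the atrial covariate (-0.78, adjusted p = 0.0168). Thra differed between the times by -0.42 (adjusted p = 0.140), Hspb8 by 0.43 (0.188), the smooth muscle actin Acta2 by -0.82 (0.197) and the RING finger protein Trim55 by 0.32 (0.270).

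Markers of other cells were read beside these results. For comparison, 2.35% of all probe sets were called higher and 2.57% lower at 12 h, and 1.23% and 2.14% at 24 h. These shares are of calls and have no bearing on the counts at an unadjusted p below. Of 11 macrophage and monocyte markers 5 were called higher at 12 h and 0 at 24 h, and their mean per array was 8.59 to 8.995 log2 in SAP 24 h hearts, 9.07 to 10.03 in SAP 12 h hearts and 8.57 to 8.77 in sham hearts. Of 9 neutrophil markers 4 were called higher at 12 h and 1 at 24 h, with array means of 4.99 to 6.19, 5.49 to 6.33 and 4.68 to 5.00 in the same groups. Of 9 measured fast skeletal muscle markers 0 were called at either time by limma, with 1 and 2 at an unadjusted p under 0.05, and their array means lay between 4.53 and 4.83 in all groups. Of 8 measured fibroblast markers 1 was called higher at 12 h (Tcf21, 0.86) and 1 lower at 24 h (Col1a2, -1.11), and the list medians were -0.73 at 12 h and -1.07 at 24 h. Their array means were 11.07 to 11.40 in SAP 24 h hearts, 10.86 to 12.85 in SAP 12 h hearts and 11.57 to 12.89 in sham hearts. Of 8 endothelial markers 2 were called higher at 12 h, Vwf (1.11) and Emcn (0.42), and 0 of 8 at 24 h by limma, with 3 at an unadjusted p under 0.05. Their array means were 10.78 to 11.19, 10.60 to 11.56 and 10.63 to 10.91 in the same order of groups. Of 9 smooth muscle and pericyte markers Smtn was called lower at both times (-0.70 at 12 h and -0.50 at 24 h) and Cspg4 higher at 12 h (0.71), with array means of 8.05 to 8.93 at 24 h, 8.76 to 9.28 at 12 h and 8.15 to 9.16 in sham hearts. Of 9 atrial markers Dkk3 was called higher (1.15) and Kcna5 lower (-0.55) at 12 h, and Myl7 lower at 24 h. Of the lymphocyte, erythroid, adipocyte and epicardial markers, with 6, 5, 6 and 4 measured, 0 were called at either time by limma, and 1, 1, 0 and 0 at 12 h and 0, 0, 1 and 0 at 24 h had an unadjusted p under 0.05. Of 12 pancreatic acinar markers 0 were called at 12 h by limma, with 1 at an unadjusted p under 0.05, and Ctrb1 was called higher at 24 h (0.77). The part of these cells in the sarcomere results was not tested.

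The genes whose profile over the 15 arrays was most like the mean of the 8 sarcomere genes were found among 5075 others with a mean of at least 8 log2. They were Cox6b1 (Pearson r = 0.954), Slc25a3 (0.893), Cox5b (0.891), Hspa9 (0.868) and Ndufb9 (0.867), 3 of them respiratory chain subunits, 1 the mitochondrial phosphate carrier and 1 the mitochondrial heat shock protein. Leaving out sham replicate 3 gave r of 0.943, 0.859, 0.884, 0.840 and 0.852. Myh7 by itself was most like Rps24 (0.901), Dynlrb1 (0.886), Cd63 (0.867), Rpl31 (0.862) and Rps27 (0.862), and without sham replicate 3 these were between 0.58 and 0.78. The profiles share their arrays and the shift of the bright probe sets, so the values are a description.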

How the data were processed

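Total RNA of 15 rat hearts was hybridised to an Affymetrix transcript-cluster array. The deposited values are log2 levels named as RMA output, which the authors made with Affymetrix Expression Console per the submitters' processing notes. No version of it is stated there. That they are log2 rests on that name. A second deposited table was identical. Labels disagree: the series title and extraction note speak of ischemia/reperfusion and mice, and the sample-level fields were followed. No batch is named.

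In R 4.3.3 a limma 3.58.1 model (lmFit and eBayes) took 1 mean per group over the 15 arrays, with p-values adjusted over 23188 probe sets and called under 0.05. The fit was tested on simulated data. The number of arrays limits the precision, and the median standard error was 0.150 log2.

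The sarcomere genes and lists were chosen with earlier results of these data known. Named genes were all members and, per related list and comparison, up to 4 called genes with the smallest adjusted p, or 2 by unadjusted p if none was called. Myot, the marker genes of other cells, Acta1, Tnni1, Tpm1, Actn2, and Smyd1 and Ppp1r12b at 12 h and Smyd1 and Hspb8 at 24 h were added after their values were seen. The likeness rule took 5 genes. Replicate numbers did not pair arrays: 2 of 15 same-number pairs correlated over 0.1.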

Additional observations from a re-analysis of the deposited data

Results flagged for a closer look

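Single arrays far from the other 4 of their group were looked for in the 8 sarcomere genes and 20 named related genes, and about 1 in 20 groups would be found by chance. In the sarcomere genes 8 of 24 groups held such an array, 4 of them through sham replicate 3. Sham replicate 3 was low for Tnnt2 (18.8 log2, the others 19.18 to 19.21), Tnni3 (18.5, the others 18.9 to 18.94), Actc1 (19.07, the others 19.45 to 19.5) and Myl3 (19.02, the others 19.53 to 19.62). SAP 24 h replicate 2 was low for Actc1 (18.64, the others 19 to 19.09) and Myl3 (19.29, the others 19.57 to 19.63). In the same group replicate 5 was high for Myh7 (18.9, the others 18.69 to 18.74) and replicate 1 for Tnni3 (18.97, the others 18.73 to 18.77). The highest value of the array was 19.46 in SAP 24 h replicate 2 and 19.38 in sham replicate 3, and 19.71 to 19.83 in the other 13 arrays.

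In the related genes 6 of 60 groups held such an array. At 24 h replicate 4 was high for Csrp3 (18.23, the others 18.06 to 18.08) and replicate 5 for Myl7 (11.3, the others 5.75 to 7.03). At 12 h replicate 5 was low for Tpm3 (12.33, the others 12.59 to 12.66) and replicate 4 for Esrrg (9.25, the others 9.59 to 9.71). In sham hearts replicate 1 was high for Lmod2 (17.27, the others 16.98 to 17.05) and replicate 3 low for Trim54 (14.33, the others 15.02 to 15.16).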

How the results depend on the processing

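Chosen after seeing the data were leaving out the 4 atrium-rich arrays, the mean of 6 atrial markers as a covariate, and centring on abundant probe sets. Of the sarcomere genes 0 were called higher in any of the alternatives run. The number called lower at 12 h, 1 as reported, was 2 with quantile normalization repeated or centring on abundant probe sets, 0 with only the 2 groups compared, the replicate block, the 4 arrays left out or the atrial covariate, and 0 to 2 without 1 array. Actc1 differed at 12 h by -0.45 with the replicate block (adjusted p = 0.0889), and its adjusted p over all alternatives lay between 0.00891 and 0.114. At 24 h the number called lower, 0 as reported, was 1 with eBayes trend and robust settings, array weights or centring, and 0 to 1 without 1 array. It was Actc1 each time. Replicate numbers did not pair the arrays, so a call lost under the block is not read as a weaker effect.

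The count of all probe sets called at 12 h (1140) was 598 without the 4 arrays and 786 to 1202 without 1 array. At 24 h (782) it was 1263 with array weights, 1230 with only the 2 groups, 500 without the 4 arrays, 503 with the covariate and 420 to 1001 without 1 array. Between the times (160) it was 75 with only the 2 groups, 85 without the 4 arrays, 83 with the covariate and 73 to 398 without 1 array. Fewer arrays in a fit also lower its power.

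Uncalled differences near 0 changed sign. Against sham these were Myl3 at 12 h (-0.022 centred, and -0.0615 to 0.097 without 1 array), Myl3 at 24 h (-0.014 without the 4 arrays, and -0.0315 to 0.1395 without 1 array) and Tnni3 at 24 h (0.013 with quantile normalization repeated). Between the times the 4 arrays left out and the covariate gave -0.027 and -0.039 for Tnni3, -0.14 and -0.13 for Tnnc1, -0.041 and -0.046 for Myl2 and -0.014 and -0.020 for Myl3. Myh7 gave 0.036 with quantile normalization repeated and 0.004 centred. Without 1 array the ranges were -0.0435 to 0.0275 for Myh7, -0.037 to 0.025 for Tnni3, -0.079 to 0.091 for Tnnc1, -0.002 to 0.1185 for Actc1, -0.0105 to 0.142 for Myl2 and -0.019 to 0.0915 for Myl3.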
